A study of Mus musculus with 18 samples.

Results

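The genes described are 10 transporters and binding proteins of bile acids and organic anions: Slc10a1, Slc10a2, Slc51a, Slc51b, Abcb11, Abcb4, Abcc2, Fabp6, Slco1a4 and Slco1b2. They were taken by gene symbol from the platform annotation, which names 22180 genes on probe sets with 1 symbol. Of the 10, 9 had such a probe set, 1 each. Slc51b shares its only probe set with Rasl12, so no value is given for it. The levels come from 18 Affymetrix whole-transcript arrays, 9 of liver and 9 of small intestine, each with 5 OMT and 4 YMT arrays. All recipients were C57BL/6 mice, germ-free before the transfer according to the design text, 5 to 6 weeks old when they received gut microbiota and followed for 8 weeks. OMT recipients were given microbiota of donors about 24 months old. YMT recipients were given microbiota of young donors, whose age the labels put at 4 weeks in one place and at 5 to 6 weeks in another. The recipients' age at sampling is given as 12 weeks and as 13 weeks. The design addresses how intestinal and hepatic metabolism differ with the age of the microbiota donor. The numbers of donors and cages, and whether one animal gave both tissues, are not stated in the labels used here, so a shared donor or cage cannot be told apart from donor age.

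Bile acids are made from cholesterol in hepatocytes, pumped into bile, taken up again by the ileum and returned to the liver in portal blood. Hepatocytes extract them from blood with the sodium-coupled carrier Slc10a1 and with organic anion carriers of the Slco family, and they secrete them into the bile canaliculus through Abcb11, beside the phospholipid floppase Abcb4 and the conjugate exporter Abcc2. Ileal enterocytes take them up through Slc10a2, bind them in the cytosol with Fabp6 and release them to blood through the heterodimer of Slc51a and Slc51b.

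The promoter windows of the genes on which the results turn are shown first, with the motifs of nuclear receptors and liver factors known to act on bile acid genes. Each sequence is the 250 bases before the RefSeq transcription start (mouse build GRCm38.p6), written 5′ to 3′ on the gene's own strand. Slco1a4, whose level differed most clearly between the donor groups, is at chr6:141856221-141856470, minus strand. Its neighbour Slco1a1, a related carrier that is not one of the 10 genes, is at chr6:141946963-141947212, minus strand. The bile salt export pump Abcb11 is at chr2:69342617-69342866, minus strand, and the ileal carrier Slc10a2 is at chr8:5105288-5105537, minus strand. Capitals mark motif matches.
Slco1a4: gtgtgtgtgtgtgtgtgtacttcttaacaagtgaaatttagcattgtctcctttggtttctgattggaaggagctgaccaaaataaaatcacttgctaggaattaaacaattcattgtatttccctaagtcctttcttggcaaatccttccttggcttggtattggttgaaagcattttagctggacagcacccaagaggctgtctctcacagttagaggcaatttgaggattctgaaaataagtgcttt
Slco1a1: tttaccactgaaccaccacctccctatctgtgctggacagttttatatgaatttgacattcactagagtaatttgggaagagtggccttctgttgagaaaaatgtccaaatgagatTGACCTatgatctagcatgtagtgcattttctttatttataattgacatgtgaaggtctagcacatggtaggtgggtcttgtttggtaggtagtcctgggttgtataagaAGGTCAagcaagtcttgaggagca
Abcb11: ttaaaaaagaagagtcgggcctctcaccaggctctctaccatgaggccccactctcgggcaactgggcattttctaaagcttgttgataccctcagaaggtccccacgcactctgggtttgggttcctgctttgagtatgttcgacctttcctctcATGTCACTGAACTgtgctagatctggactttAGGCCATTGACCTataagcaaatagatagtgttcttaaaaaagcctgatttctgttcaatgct
Slc10a2: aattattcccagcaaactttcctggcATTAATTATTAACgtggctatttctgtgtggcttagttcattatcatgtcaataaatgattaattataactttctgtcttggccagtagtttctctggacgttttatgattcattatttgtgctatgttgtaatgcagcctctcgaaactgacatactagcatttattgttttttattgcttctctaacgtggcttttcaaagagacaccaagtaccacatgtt

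Motifs were searched on both strands. The inverted repeat AGGTCANTGACCT, the form of element through which the bile acid receptor Nr1h4 (FXR) commonly acts, was matched with at most 2 mismatches. It occurred in 0.959% of all 32851 windows and in those of Abcb11, Fabp6 and Slco1b2. In the Abcb11 window the closer of its matches lies 63 to 51 bases before the start and has 1 mismatch. The Slco1b2 match also has 1 mismatch and lies 88 to 76 bases before the start, and the Fabp6 matches have 2 each.
Abcb11: AGGCCATTGACCT
Slco1b2: AGGACAGTGACCT
Fabp6, farther from the start: AGGTGAATGACCA
Fabp6, nearer to the start: AGGTGAATAACCT

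The palindrome GTTAATNATTAAC bound by hepatocyte nuclear factor 1, matched in the same way, occurred in 1.24% of windows and in those of Slc10a2 and Abcc2.
Slc10a2: ATTAATTATTAAC
Abcc2: GTTAACTATTAAG
Together, 5 of the 10 genes held a match to either palindrome, against 2.19% of all windows. The 10 were counted by gene and the background by window, so the shares are not of like units. Slc10a1, with more than 1 window, counted if any of them held a match. With at most 1 mismatch these were Abcb11, Slco1b2 and Slc10a2, against 0.268% of windows. The single half-site AGGTCA, which lies inside the inverted repeat, occurred in 14% of windows and for 6 of the 10 genes, and CAAGGTCA, the site of LRH-1, in 1.33% of windows and none of the 10. None of these letters was found in the Slco1a4 window, while that of Slco1a1 held 2 half-sites. A match describes the sequence and was not tested as a binding site.

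The 9 genes with a value lay at different ranks in the tissues. Since it is not stated whether both tissues were normalized together, each gene's level was ranked within its array, as a percentile among the 41345 probe sets. Slc10a1, the sodium-coupled uptake carrier of hepatocytes, lay between the 99.5th and 99.7th percentile on the 9 liver arrays and between 33 and 46 in intestine. Slco1b2, the main Slco1b carrier of mouse hepatocytes, ranged from 99.5 to 99.6 in liver and from 11.8 to 17.9 in intestine. Slco1a4, which carries bile acids, steroid conjugates and cardiac glycosides, ranged from 90.1 to 95.6 in liver and from 32.1 to 45.7 in intestine. These 3 carriers were thus high in liver and under the median of the array in intestine.

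The canalicular pumps showed the same division except for Abcc2. Abcb11 lay between 97.8 and 99.3 in liver and between 17.2 and 26.3 in intestine. Abcb4, which moves phosphatidylcholine into bile, lay between 96.8 and 98.1 in liver and between 35.3 and 46.6 in intestine. Abcc2, which exports glucuronide and glutathione conjugates in both organs, lay between 99.2 and 99.5 in liver and between 97.3 and 98.8 in intestine.

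The ileal genes were high in the intestine. Fabp6 lay between 99.7 and 100 there and between 28.7 and 64.3 in liver. Slc51a, the larger subunit of the basolateral exporter, lay between 98.5 and 99.5 in intestine and between 37.6 and 45.0 in liver. Slc10a2 lay between 85.3 and 99.1 in intestine, the widest of these intestinal ranges, and between 62.7 and 78.1 in liver, where bile duct cells are known to carry it. For each of the 9 genes the liver and intestine ranges did not overlap. Abcc2 came closest, at most 98.8 in intestine and at least 99.2 in liver. The share of all probe sets with ranges apart in this way was not computed, so the count describes these genes only. Markers went with the tissue labels. The mean of 8 hepatocyte markers was 12.07 to 12.15 on liver arrays and 4.72 to 5.39 on intestine arrays, and that of 8 enterocyte markers was 11.39 to 12.38 in intestine and 6.34 to 6.75 in liver. The 7 bile duct markers with a probe set averaged 3.77 to 3.95 in liver, below the array medians of 4.12 to 4.22.

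**Figure D1:**
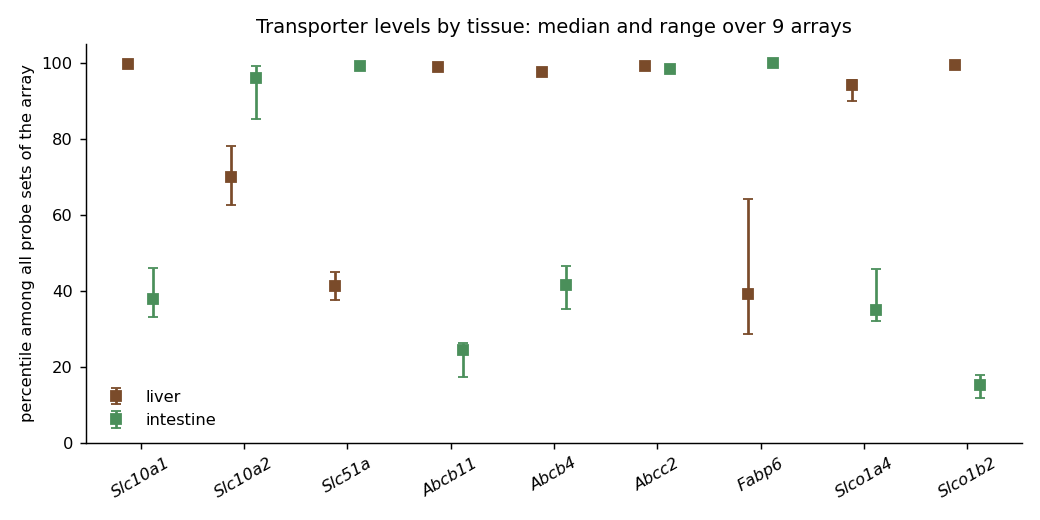
Percentile of each transporter among all probe sets of an array (vertical axis) in 9 liver and 9 intestine arrays; squares are medians and bars run from the lowest to the highest array. Slc10a1, Abcb11, Abcb4, Slco1a4 and Slco1b2 are high in liver, Fabp6, Slc51a and Slc10a2 in intestine, and Abcc2 is above the 97th percentile in both.

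In liver, Slco1a4 was higher in OMT than in YMT recipients, and it was the only one of the 7 transporters tested there to pass the threshold. Testing required a level above the median of the array on 4 or more of the 9 arrays. Values are log2 array levels, and each difference is that of OMT less YMT, with its standard error (SE) where given. The p-values from limma were adjusted by the Benjamini-Hochberg method over every gene tested in that tissue, with 0.05 as the threshold. Of the 13380 genes tested in liver 19.2% passed (10.4% higher and 8.78% lower in OMT), so 1 of 7 is no more than that background. The median difference of the 7 transporters was -0.006, and that of all tested genes was -0.005. RNA came from whole tissue, so fewer cells of a type and less RNA per cell cannot be told apart.

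Slco1a4 read 8.22, 8.32, 8.59, 8.57 and 8.68 on OMT liver arrays 1 to 5 and 7.44, 7.77, 7.67 and 7.66 on YMT liver arrays 1 to 4. Every OMT array was above every YMT array, a separation that 18.1% of tested genes showed (9.64% higher and 8.51% lower in OMT). The difference was 0.84 ± 0.109 (SE; 95% interval 0.60 to 1.08), a 1.79-fold higher level (interval 1.52 to 2.12), with an adjusted p of 0.000488 by limma. The exact two-sided permutation test over its 126 splits gave p = 0.00794, the smallest it can give with 5 and 4 arrays. The call held with each array left out in turn (adjusted p 0.000443 to 0.00226) and without OMT arrays 1 and 2 (0.98, adjusted p 0.000255). The intestine arrays of these numbers had the highest means of 97 small nucleolar RNAs in that tissue. On OMT liver arrays 1 and 2 these means were 6.04 and 6.15, between those of OMT liver arrays 3 (5.94) and 4 (6.59). Beside the Slco1a4 difference, the hepatocyte marker mean was 12.09 to 12.14 in OMT and 12.07 to 12.15 in YMT livers. The endothelial marker mean was 6.59 to 6.86 in OMT and 7.06 to 7.34 in YMT livers. Against 8.78% lower and 10.4% higher among all tested genes, 4 of 7 endothelial markers were lower in OMT and none higher. Endothelial markers were not alone in this. Of 6 smooth muscle markers 2 were lower in OMT and none higher, and of 3 colon markers tested 2 were lower and none higher. Of 7 Kupffer cell markers 2 were lower and 1 higher, and of 8 hepatocyte markers 1 was higher and none lower. The part of any of these markers in the level of Slco1a4 was not tested.

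**Figure D2:**
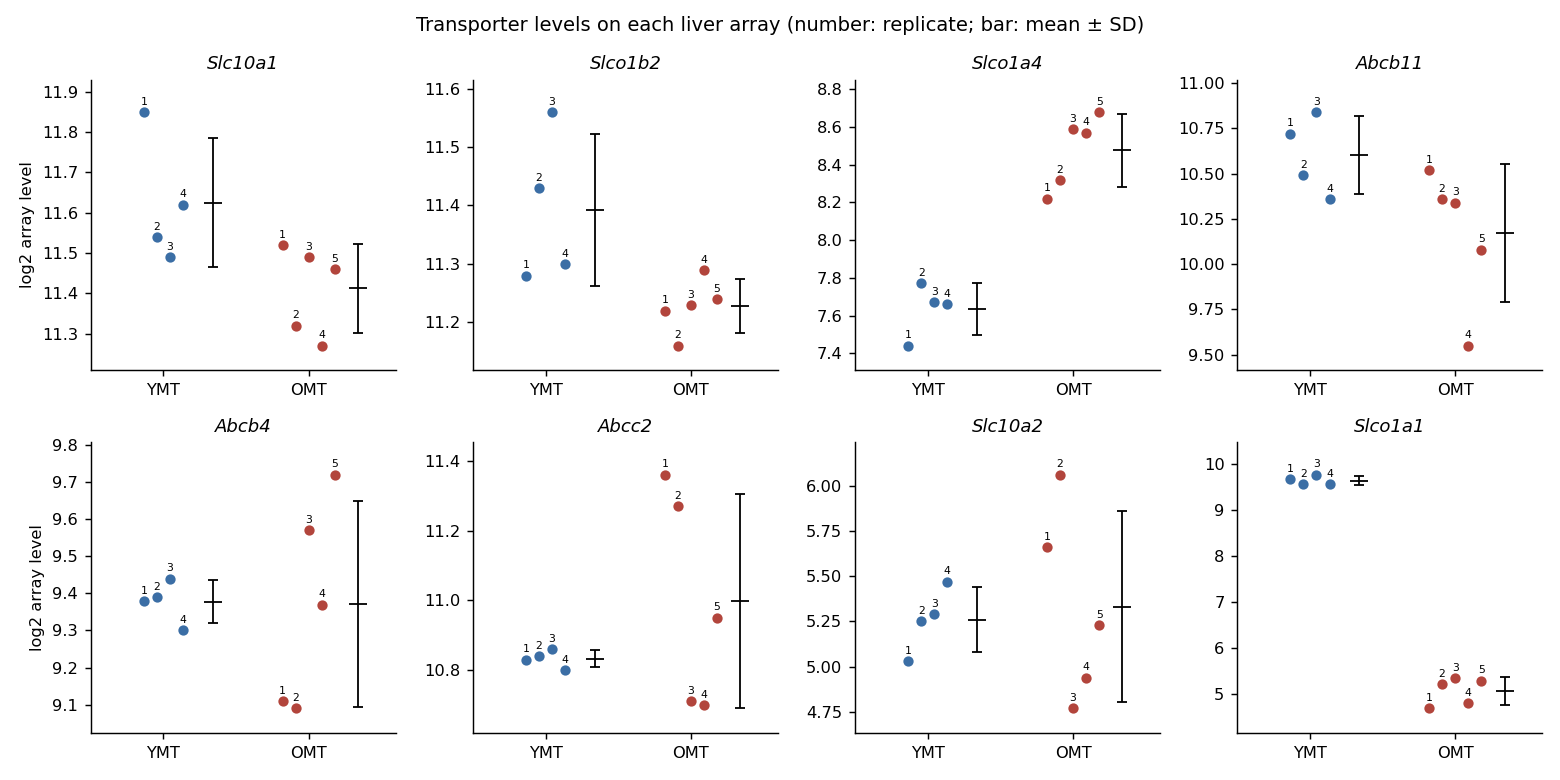
Log2 array level (vertical axis, its own range in each panel) of 7 transporters and of Slco1a1 on 4 YMT and 5 OMT liver arrays; points are arrays with their replicate number, and black bars are mean ± SD. Slco1a4 is higher and Slco1a1 lower on every OMT array than on every YMT array, while the groups of the other 6 genes overlap.

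The other hepatic uptake carriers did not pass. Slc10a1 read 11.52, 11.32, 11.49, 11.27 and 11.46 on OMT arrays and 11.85, 11.54, 11.49 and 11.62 on YMT arrays. Its highest values were in YMT, and the groups overlapped through YMT array 3. The difference was -0.21 (95% interval -0.41 to -0.013) with an adjusted p of 0.13 by limma. Slco1b2 read 11.22, 11.16, 11.23, 11.29 and 11.24 on OMT arrays and 11.28, 11.43, 11.56 and 11.30 on YMT arrays. The groups overlapped by a single pair, OMT array 4 above YMT array 1. The difference was -0.16 (interval -0.33 to -0.00096) with an adjusted p of 0.152 by limma. Unadjusted exact permutation p-values were 0.0397 for Slc10a1 and 0.0159 for Slco1b2. The share of all genes under 0.05 by that test was not computed. By limma, Slco1a4 (1.02e-05), Abcb11 (0.0372), Slc10a1 (0.039) and Slco1b2 (0.0489) had an unadjusted p under 0.05 among the transporters tested in liver. So did 32.4% of all genes tested there.

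Slco1a4 lies on chromosome 6 in a group of Slco1 genes whose RefSeq order is Slco1c1, Slco1b2, Slco1a4, Slco1a1, Slco1a6 and Slco1a5. Slco1a1, next to it, is an uptake carrier that mouse liver is known to express mainly in males, whereas Slco1a4 is known to be the higher of the pair in females. The sex of the recipients was not examined here, and whether it has a part in the levels of these genes was not tested. Slco1a1 read 4.69, 5.21, 5.35, 4.81 and 5.29 on OMT liver arrays and 9.66, 9.55, 9.76 and 9.55 on YMT liver arrays. Every OMT array was far below every YMT array. The difference was -4.56 ± 0.139 (SE), with an adjusted p of 4.89e-08 by limma, so the neighbours differed in opposite directions between the same livers. The OMT mean of Slco1a1, 5.07, was not far above the array medians. Slco1c1, Slco1a6 and Slco1a5 were under the level filter in liver, with values of 3.74 to 4.11, 1.90 to 2.53 and 2.55 to 2.82. These genes are close relatives, and whether a probe set of one also detects another was not tested.

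**Figure D3:**
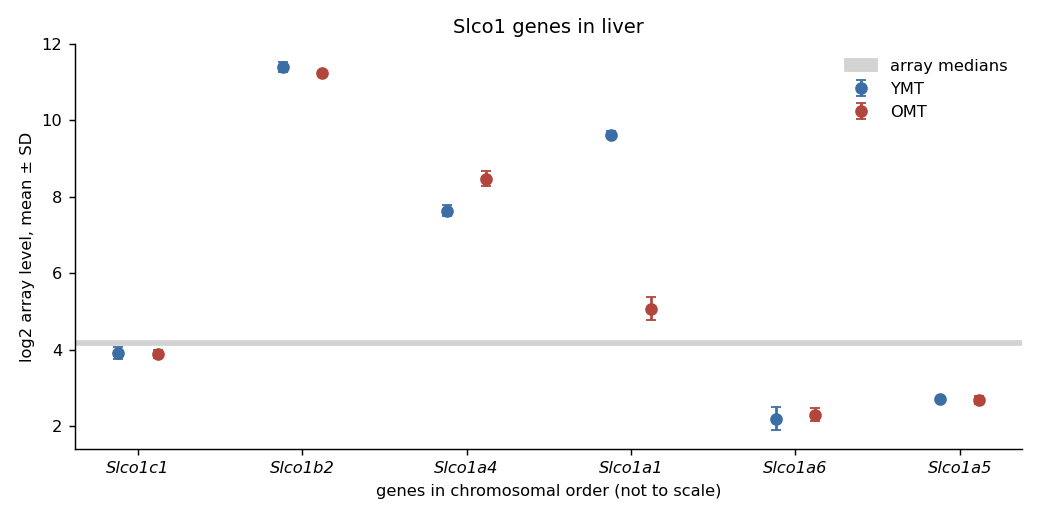
Log2 array level (mean ± SD) of the 6 Slco1 genes in liver, in chromosomal order, for 4 YMT and 5 OMT arrays; the grey band spans the array medians. Slco1b2 is high in both groups, Slco1a4 is higher by 0.84 and Slco1a1 lower by 4.56 in OMT, and the other 3 genes lie below the array medians.

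The canalicular transporters in liver did not differ beyond the threshold. Abcb11, the bile salt export pump, read 10.52, 10.36, 10.34, 9.55 and 10.08 on OMT arrays and 10.72, 10.49, 10.84 and 10.36 on YMT arrays. OMT array 4 was the lowest and YMT array 3 the highest, and the groups overlapped. The difference was -0.43 ± 0.182 (SE; 95% interval -0.83 to -0.031), with an adjusted p of 0.125 by limma. It was -0.28 without OMT array 4 (adjusted p 0.152) and -0.61 without OMT arrays 1 and 2 (adjusted p 0.0561).

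Abcc2 read 11.36, 11.27, 10.71, 10.70 and 10.95 on OMT liver arrays and 10.83, 10.84, 10.86 and 10.80 on YMT liver arrays. OMT arrays 1 and 2 stood above all others, while the 4 YMT arrays lay between 10.80 and 10.86. The difference was 0.17 (95% interval -0.14 to 0.47), with an adjusted p of 0.445 by limma, and it was -0.05 without OMT arrays 1 and 2. Abcb4 read 9.11, 9.09, 9.57, 9.37 and 9.72 on OMT arrays and 9.38, 9.39, 9.44 and 9.30 on YMT arrays. Here OMT arrays 1 and 2 were the lowest of all, and arrays 3 and 5 the highest. The difference was -0.01 (interval -0.29 to 0.28), with an adjusted p of 0.984 by limma, and it was 0.18 without OMT arrays 1 and 2.

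Slc10a2 was low in liver but above the array medians on all 9 arrays. It read 5.66, 6.06, 4.77, 4.94 and 5.23 in OMT and 5.03, 5.25, 5.29 and 5.47 in YMT. OMT arrays 1 and 2 were again the highest, and OMT arrays 3 and 4 were below every YMT array. The difference was 0.07 (95% interval -0.44 to 0.58), with an adjusted p of 0.862 by limma, and -0.28 without those 2 arrays. Slc51a (3.53 to 3.96) and Fabp6 (3.16 to 4.97) were under the level filter in liver. Fabp6 exceeded the array median on 1 array only, OMT array 1.

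**Figure D4:**
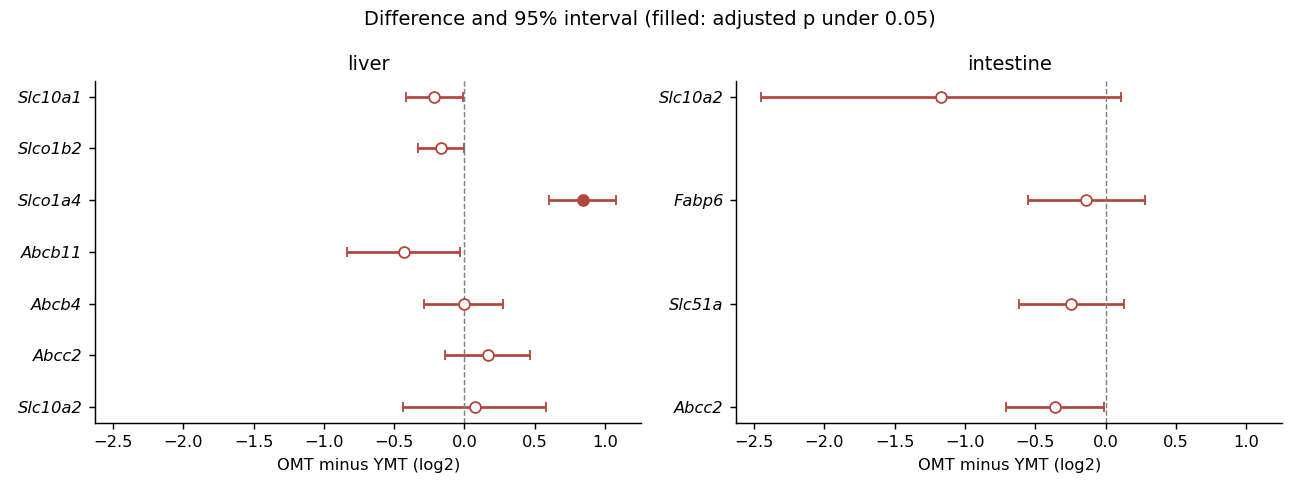
OMT minus YMT on the log2 scale (horizontal axis) with its 95% interval for the 7 transporters tested in liver and the 4 tested in intestine. Slco1a4 in liver, filled, is the only one with an adjusted p under 0.05, and Slc10a2 in intestine has the widest interval, from -2.45 to 0.11.

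In the small intestine, 0 of the 4 transporters tested passed (limma, adjusted p under 0.05), against 4.14% of the 13238 genes tested (1.04% higher and 3.10% lower in OMT). With an unadjusted limma p under 0.05 the count was 1, Abcc2, against 22.8% of all tested genes, and 0 by the exact permutation test. The groups overlapped for all 4, while they did not for 9.65% of tested genes (2.80% higher and 6.84% lower in OMT). All 4 estimates were below 0, with a median of -0.302 against -0.022 for all tested genes. The 4 estimates come from the same 9 arrays, so they are not independent. For deviations from the group means, Pearson's r was 0.439 for Slc10a2 with Fabp6 and 0.792 for Slc51a with each of these. With Abcc2 it was -0.748 for Slc10a2, -0.403 for Slc51a and -0.007 for Fabp6. Shared expression in the ileum was not tested as a reason.

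Slc10a2, the apical uptake carrier, read 7.08, 9.09, 8.54, 8.91 and 10.41 on OMT intestine arrays and 10.85, 9.68, 9.08 and 10.30 on YMT intestine arrays. OMT array 1 was the lowest and YMT array 1 the highest, and OMT array 5 lay among the upper YMT values. The difference was -1.17 ± 0.576 (SE; 95% interval -2.45 to 0.11), a ratio of OMT to YMT of 0.444 (interval 0.183 to 1.08), with an adjusted p of 0.254 by limma. It ranged from -1.57 without OMT array 5 to -0.74 without OMT array 1. Its SD of 1.20 within the OMT group was at the 99.9th percentile of all tested genes, and its SD of 0.766 within YMT at the 99.3rd. The range among OMT recipients, 7.08 to 10.41, was thus wider than the difference between the groups.

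Fabp6, the ileal bile acid-binding protein, read 12.28, 12.79, 12.57, 11.94 and 12.46 in OMT and 12.90, 12.58, 12.11 and 12.59 in YMT. The groups overlapped over most of their range. The difference was -0.14 (95% interval -0.55 to 0.28), with an adjusted p of 0.696 by limma. Slc51a read 10.34, 10.82, 10.85, 10.56 and 10.89 in OMT and 11.40, 10.88, 10.56 and 10.90 in YMT. OMT array 1 was the lowest and YMT array 1 the highest, as for Slc10a2. The difference was -0.24 (interval -0.62 to 0.13), with an adjusted p of 0.419 by limma.

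Abcc2 read 10.20, 10.12, 10.12, 9.70 and 9.64 on OMT intestine arrays and 10.21, 10.48, 10.59 and 9.99 on YMT intestine arrays. OMT arrays 4 and 5 were below all others, and the groups overlapped through YMT array 4. The difference was -0.36 ± 0.158 (SE; 95% interval -0.71 to -0.011), with an adjusted p of 0.206 by limma. Slc10a1 (3.60 to 4.28), Slco1a4 (3.57 to 4.32) and Slco1b2 (2.31 to 2.75) were under the level filter in intestine, as were Abcb11 and Abcb4.

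Genes that mark the position along the small intestine varied between the same arrays. Of the 7 proximal markers, Fabp1 and Lct are given by array as chosen after their values were seen. Fabp1, the fatty acid-binding protein of the upper small intestine, read 11.00 on OMT array 1, its highest value, and 5.74 on YMT array 1, its lowest. These arrays held the lowest and the highest value of Slc10a2. Lactase (Lct) read 7.82 on YMT array 1 and 9.29 to 11.29 on the others. Gata4 was also lowest on YMT array 1 (5.83), but its highest value, 7.55, was on OMT array 3. The iron exporter Slc40a1 ran the other way, with its lowest value, 3.87, on OMT array 1 and its highest, 7.54, on YMT array 1. The markers Onecut2, Pdx1 and Cybrd1 varied little, between 4.21 and 5.12 over all 9 arrays. Among the 7 proximal markers none was higher and 1, Slc40a1, was lower in OMT (-2.01, adjusted p 0.0394 by limma), and the list's mean was 6.40 to 6.86 in OMT and 5.86 to 6.75 in YMT. Among the 6 distal markers none passed, and their mean was 9.29 to 9.88 in OMT and 9.53 to 10.13 in YMT. With the proximal mean as a covariate the Slc10a2 difference was -0.79 (adjusted p 0.38 by limma), and with the distal mean it was -0.99 (adjusted p 0.376). The mean level of 97 small nucleolar RNAs was 7.31 and 6.93 on OMT intestine arrays 1 and 2 and 6.10 to 6.53 on the others. Without OMT arrays 1 and 2 the Slc10a2 difference was -0.69 (adjusted p 0.551).

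**Figure D5:**
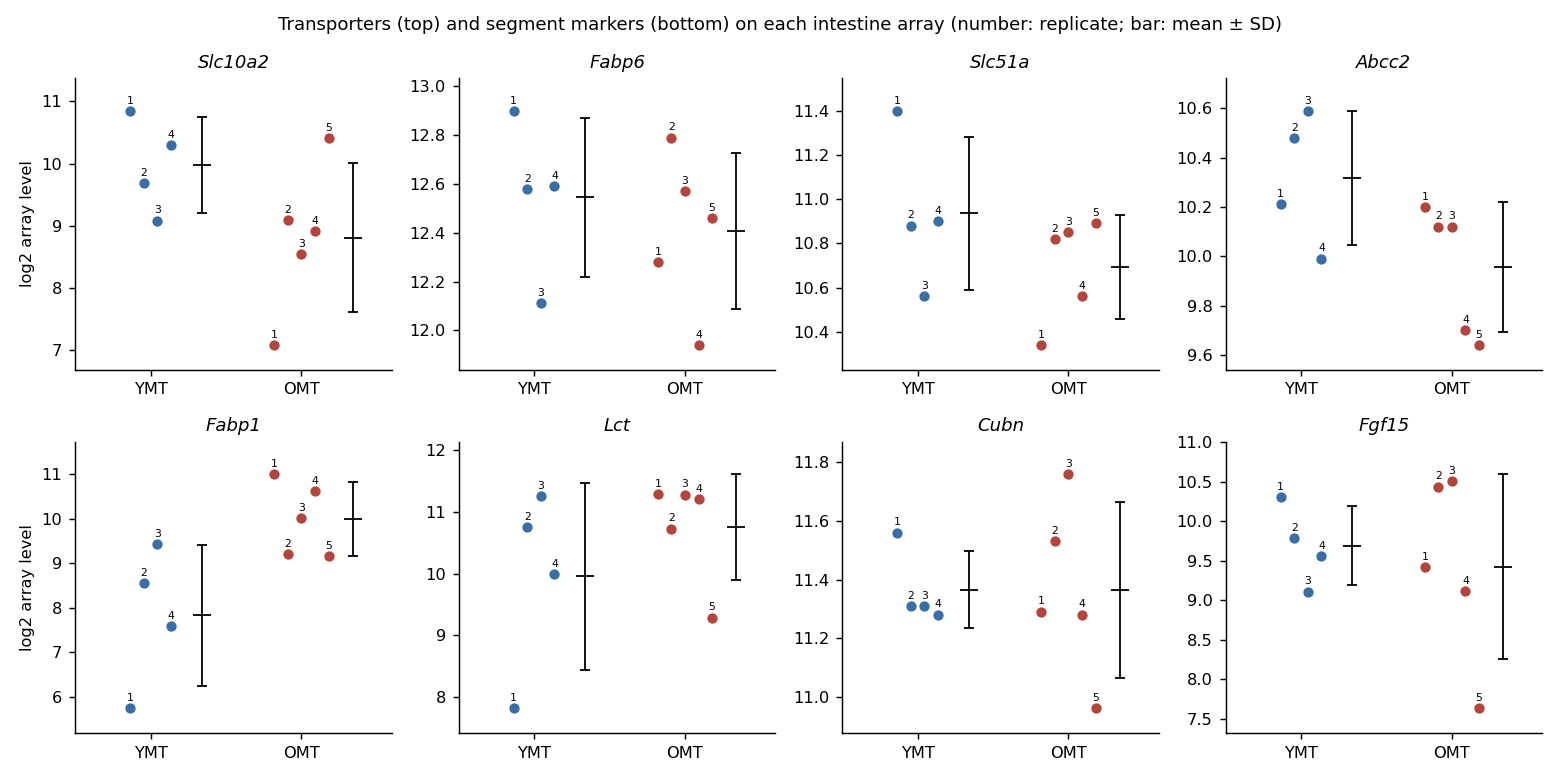
Log2 array level (vertical axis, its own range in each panel) of the 4 transporters tested in intestine and of 4 segment markers, the proximal Fabp1 and Lct and the distal Cubn and Fgf15, on 4 YMT and 5 OMT arrays; points are arrays with their replicate number, and black bars are mean ± SD. The groups overlap for all 4 transporters. Arrays YMT 1 and OMT 1 hold the extremes of Slc10a2 (10.85 and 7.08) and of Fabp1 (5.74 and 11.00), a marker chosen after its values were seen. The distal Fgf15 is lowest (7.63) on OMT 5, where Slc10a2 is the highest of the OMT arrays (10.41).

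Whether the OMT minus YMT difference was unequal in the 2 tissues was tested in 1 limma model over all 18 arrays and 14648 genes, of which 11% passed (6.98% with a higher value in liver and 4.05% with a lower one). Slco1a4 was the only one of the 9 transporters to pass, with a difference of 0.81 ± 0.203 (SE; 95% interval 0.38 to 1.23) between liver and intestine and an adjusted p of 0.0152. As a share, 1 of 9 is close to the 11% of all genes. The intestinal values of Slco1a4 lay below the array medians on all 9 arrays. Its value thus rests on the liver difference and cannot show how the tissues compare. Slco1a4 is outside the test when a gene must pass the level filter in both tissues. The values of Slc10a2 (1.24, interval -0.13 to 2.62, adjusted p 0.231) and Abcc2 (0.53, interval 0.068 to 0.99, adjusted p 0.128) did not pass. No other transporter passed the level filter in both tissues. Slc10a1 (-0.36, interval -0.66 to -0.062, adjusted p 0.11) and Abcb11 (-0.44, interval -0.93 to 0.051, adjusted p 0.236) did not pass either. Both lay below the array medians on all 9 intestine arrays, so the intestinal part of their values comes from levels under the filter.

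The other genes of bile acid transport and synthesis were followed through 5 lists of 73 genes in all. In liver 61 were tested, and 13 were higher and 10 lower in OMT, 37.7% against 19.2% of all genes. All tested genes split into 10.4% higher and 8.78% lower. The lists were chosen with earlier results of these data known, so these shares do not test the pathway. Among 9 other carriers tested, Slco1a1 and the organic anion carrier Slc22a7 (-1.23 ± 0.235, SE) were lower and none was higher. Among 12 other ATP-driven exporters and lipid flippases, 3 were lower: the sterol exporter subunits Abcg8 (-1.22 ± 0.184) and Abcg5 (-0.93 ± 0.188), and Tmem30a (-0.39), a subunit of lipid flippases. The exporter Abcc4 was higher (0.49, adjusted p 0.0441 by limma), but its adjusted p was 0.0577 to 0.109 without any 1 of the arrays except OMT array 4, without which it was 0.0143. Its basolateral relative Abcc3 differed by 0.01. Of 8 scaffold and trafficking genes 2 were lower, Slc9a3r2 (-0.51) and the canalicular membrane linker radixin, Rdx (-0.27). The call of Rdx was lost with all 18 arrays in the fit (adjusted p 0.131).

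Of all genes tested in liver 10.4% were higher and 8.78% lower in OMT. Among 16 regulators tested there, from a list chosen with earlier results known, 7 were higher and none lower. They included the xenobiotic receptors Nr1i3 (CAR, 1.92 ± 0.172, SE) and Nr1i2 (PXR, 0.67 ± 0.110). Nr1i2 is known to induce Slco1a4 in mouse liver, and whether it has a part in the Slco1a4 level here was not tested. The nuclear receptor Hnf4a (0.55) and the bile acid receptor Nr1h4 (0.35) were also higher. The call of Nr1h4 was lost with all 18 arrays in the fit (adjusted p 0.0927). The repressor Nr0b2, a target of Nr1h4, had a difference of -0.04 with an adjusted p of 0.953. Of 16 genes of bile acid synthesis and conjugation 5 were higher and 3 lower. Cyp7a1, the rate-limiting enzyme, was higher by 2.71 ± 0.303, Cyp39a1, an oxysterol hydroxylase, by 1.32 ± 0.133, and Acox2, which shortens the side chain in peroxisomes, by 0.81 ± 0.109.

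In intestine 52 of these genes were tested, and 2 were higher and 3 lower in OMT, 9.62% against 4.14% of all genes. The lists were chosen with earlier results known, so these shares too do not test the pathway. Nr0b2 (0.58, adjusted p 0.0255 by limma) and Slc27a2, a bile acid and fatty acid CoA ligase (1.41, adjusted p 0.0136), were higher. Abcg5 (-0.56, adjusted p 0.0253), Nr1h4 (-0.92, adjusted p 0.0253) and Cyp39a1 (-0.88, adjusted p 0.0424) were lower. The call of Nr1h4 was lost without OMT array 1, 2 or 3 or YMT array 4 (adjusted p 0.051 to 0.0712), that of Nr0b2 without OMT array 2 or 3 or YMT array 2, 3 or 4 (0.0559 to 0.0713), and that of Abcg5 without OMT array 2 or YMT array 2 or 3 (0.0545 to 0.0825). That of Cyp39a1 was lost without any 1 array other than YMT array 3 (0.0555 to 0.117). Without both OMT arrays 1 and 2 none of these 4 passed, with adjusted p-values of 0.128 for Nr1h4, 0.116 for Nr0b2, 0.111 for Abcg5 and 0.146 for Cyp39a1, and Nr0b2 was also lost with all 18 arrays in the fit (0.239). Fgf15, the ileal hormone that signals bile acid load to the liver, differed by -0.27 with an adjusted p of 0.789.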

How the data were processed

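The deposited values are log2 expression levels. Per the submitters' processing notes the authors computed them by RMA with the Expression Console of Affymetrix, from 250 ng of total RNA per array, per the labels' protocols. RMA corrects background, normalizes quantiles and summarises probes, and it narrows differences of dim probe sets. Versions, the array's build, the log base (taken as 2 from the range) and which arrays were normalized together are not stated in those sources. Of 41345 probe sets, 23521 have 1 symbol, 1814 several and 16010 are unnamed here; 23328 of the 23521 were found by gene identifier in a RefSeq table (GRCm38.p6). Arrays give no read depth, and their number limits the precision.

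Groups came from the sample titles, which call the arrays biological replicates. Whether cages or donors were separate is not stated, so p-values measure only the spread between these arrays. No arrays held equal values. Probe sets with 1 symbol that exceeded the array median on at least 4 of a tissue's 9 arrays were tested, with the probe set of highest mean per gene, by limma 3.58.1 in R 4.3.3 (lmFit, eBayes; Benjamini-Hochberg, threshold 0.05, two-sided). Single genes were also tested by exact permutation. Other pathway genes named are up to 3 of smallest p per list and tissue among those past the threshold, and Slco1a1, Abcc3, Abcc4, Nr1h4, Nr0b2, Cyp7a1 and Fgf15 whatever their values. Position markers were named after their values were seen. Promoter windows and the order of genes are RefSeq's, and 10 of the 10 genes had a window. Figures used matplotlib 3.10.9. The members and lists were chosen with earlier results of these data known.

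On simulated arrays with the real spread, 61.2%, 89.6% and 100% of genes changed by 0.5, 1 and 2 (log2) were recovered in liver (13380 genes), 52.2%, 85.1% and 95.5% in intestine (13238 genes), and 28.4%, 82.1% and 97.0% for the difference between tissues (14648 genes). Of the calls 4.02%, 3.73% and 6.76% were genes not changed. Genes were drawn independently and 66 or 67 were changed by each amount, whereas 2563 genes passed in the real livers. These rates are thus not the power for the transporters. Alternatives were other level filters, trend and robust eBayes, all 18 arrays in 1 fit, array weights, quantile normalization, median centring, the mean over probe sets, the replicate number as a block, position markers as covariates, arrays left out and a threshold of 0.10.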

Additional observations from a re-analysis of the deposited data

Results flagged for a closer look

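Of the 28 genes named here, some of them chosen for a small p in 1 tissue, 9 had an OMT minus YMT difference that was unequal in liver and intestine (limma interaction over 18 arrays, Benjamini-Hochberg adjusted over 14648 genes, of which 1615, or 11%, passed). Only Slco1a4 is one of the transporters described, with a value of 0.81 in liver less intestine (adjusted p 0.0152). Among other carriers Slco1a1 differed by -4.44 (adjusted p 6.46e-11) and Slc22a7 by -1.22 (adjusted p 0.0049), and both lay under the level filter in intestine, as did Slco1a4. The values of genes under that filter rest on the liver difference. Among regulators the values were 1.27 for Nr1h4 (adjusted p 0.000579), which was higher in OMT in liver and lower in intestine, 0.74 for Nr1i2 (adjusted p 0.00293) and 0.62 for Hnf4a (adjusted p 0.0106). Among synthesis genes they were 2.68 for Cyp7a1 (adjusted p 4.38e-05), which was also under the level filter in intestine, 2.20 for Cyp39a1 (adjusted p 2.12e-05) and -1.46 for Slc27a2 (adjusted p 0.00207). In 74 groups of arrays examined for a single value apart from the rest, 0 had one.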

How the results depend on the processing

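The count of transporters past the threshold stayed at 1 in liver and 0 in intestine under all 20 alternatives each, and Slco1a4 kept its call in liver with an adjusted or exact p of 0.000255 to 0.00794. Of the other pathway genes, 23 passed in liver (18 to 29 over the alternatives) and 5 in intestine, where the count was 9 with the stricter level filter, 12 with all 18 arrays in the fit, 10 with array weights, 12 at a threshold of 0.10 and 1 to 5 with single arrays left out. For the difference between tissues the count of transporters was 0 when a gene had to pass the level filter in both tissues, since Slco1a4 then was not tested. With at most 1 mismatch 3 genes held a palindrome instead of 5.

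Estimates near 0 changed sign. In liver, Abcb4 was 0.048 with array weights, and Abcc3 was -0.014 after median centring. Without OMT liver arrays 1 and 2, Abcb4 was 0.18, Slc10a2 -0.28, Abcc2 -0.0458 and Abcc3 -0.0275. In intestine Abcc3 was 0.26 without OMT arrays 1 and 2, and Fgf15 was 0.0279 with the distal marker mean as a covariate. That mean includes Fgf15 itself, so a shift of Fgf15 in that fit is partly built in. With single arrays left out, the ranges in liver were -0.11 to 0.21 for Slc10a2, -0.0925 to 0.065 for Abcb4, -0.038 to 0.0387 for Abcc3, -0.34 to 0.10 for Nr0b2 and -0.05 to 0.10 for Fgf15. In intestine they were -0.31 to 0.0575 for Abcc3 and -0.54 to 0.18 for Fgf15. For the difference between tissues they were -0.16 to 0.05 for Rdx, -0.043 to 0.33 for Abcc3 and -0.14 to 0.58 for Fgf15. None of these passed, and the cause was not tested.

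The replicate numbers did not pair the arrays: the correlation of deviations of same-numbered OMT and YMT arrays was -0.178 to 0.092 in liver and -0.061 to 0.32 in intestine, and not every array correlated best with its own number. With the replicate block, which leaves OMT array 5 without a partner, the transporter counts were 1 and 0, all calls moved from 2563 to 1459 in liver and from 548 to 458 in intestine, the liver calls of Abcc4, Nr1h4, Rdx, Slc9a3r2 and Tmem30a (adjusted p 0.102, 0.0593, 0.0856, 0.068 and 0.0645) and the intestinal call of Cyp39a1 (0.0841) were lost, and the sign changed for Nr0b2 in liver (0.10) and Fgf15 in intestine (0.18). Scaling moved the split of all calls in liver from 1388 higher and 1175 lower to 1156 and 1492 with quantile normalization. Scaling left the median of all genes within 0.1.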

Other observations

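The spread of the transporters within a group ranged widely among tested genes. In OMT livers the SD of Slco1b2 was 0.0466, at the 5.1st percentile of all tested genes, while that of Slc10a2 was 0.529, at the 98.4th, and that of Abcb11 was 0.381, at the 95.5th. In YMT livers the SD of Abcc2 was 0.025, at the 2.3rd percentile, against 0.308, at the 91.3rd, in OMT livers. Whether the spreads differ between the groups was not tested.

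The genes whose deviations from the group means over the 9 arrays of a tissue were most like those of 4 transporters were listed as a description, without a test, since they are the 3 highest of 13379 values in liver or 13236 in intestine, from arrays that share RNA quality and composition. For Slc10a1 in liver they were Hmgb3, Golim4 and Mta1 (Pearson's r 0.968, 0.962 and 0.943), and for Abcb11 in liver Lonp1, Cyb5b and Kidins220 (0.958, 0.958 and 0.956). For Fabp6 in intestine they were Enc1, Endod1 and Galk2 (0.967, 0.944 and 0.940), and for Slc10a2 in intestine Myo5c, Pglyrp1 and Sort1 (0.991, 0.981 and 0.974).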
